A study of Danio rerio with 8 samples.

Results

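The genes described here encode the proteins of the mitochondrial ribosome and the factors that work on it. They were measured in RNA from pools of whole zebrafish (Danio rerio) embryos at 26 hours post fertilisation (hpf). The members were the rows of the count table whose symbol begins with mrpl or mrps and a digit, together with gfm1, gfm2, tufm, tsfm, mtif2, mtif3, mtrf1, mtrf1l, mrrf and dap3. The rule, which used no measured value, found 84 of 36351 rows, of which 46 name the large subunit, 28 name the small subunit and 10 are the factors and dap3. All 84 passed the filter on low counts, and the lowest single count of a member in any library was 61. The rule reads lower-case symbols, so MRPL49 and MRPS12, written in capitals in the table, were not members; they stood at 13.3 and 34.8 CPM (counts scaled to a common library size) in wild type and at 10.7 and 29.7 CPM in mutants, and neither passed the test.

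The wild-type group had 4 pools, and a second group had 4 pools of embryos with the genotype MZ osgep G177A/G177A, called mutants here. MZ stands for maternal-zygotic, so the mothers of these embryos, too, lacked wild-type osgep, the gene for the catalytic protein of KEOPS, a complex that modifies tRNAs decoding codons that begin with A. No other allele or agent is named for either genotype. Embryos came from single and from group crosses, and the labels do not tie pools to separate clutches. A p-value here thus sets the difference between genotypes against the spread of the pools, which may be technical in part. The transcript of osgep itself stood at 19.2 ± 3.24 CPM (mean ± SD, n = 4) in wild type and 10.7 ± 2.25 CPM in mutants (adjusted p = 0.00826).

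Mitochondria keep a small genome, whose messenger RNAs encode core subunits of the respiratory chain and of ATP synthase. These messages are read inside the organelle by a ribosome of its own, whose RNAs come from the mitochondrial genome while all of its proteins are encoded in the nucleus and imported. The factors resemble those of bacteria: initiation factors place the first tRNA, elongation factors deliver tRNAs and move the ribosome along, and release and recycling factors end synthesis and part the subunits. The roles given for single genes are known from mammals, yeast or bacteria.

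The libraries held 21290942 to 27675104 counts each. The genotypes also differed in the make-up of the whole embryo. Summed fast-muscle markers ran from 3672 to 4747 CPM in wild type and from 599.5 to 686.8 CPM in mutants, with 10 of 10 markers lower. Of 10 neuronal markers 8 were lower (760.7 to 945.5 CPM summed in wild type, 536.8 to 644.1 CPM in mutants), and all 5 lens markers were lower. Epidermal markers overlapped, at 13380 to 19240 CPM in the wild type against 13120 to 18670 CPM in mutants, and so did erythroid markers, at 189.6 to 688 CPM and 309.7 to 457.9 CPM. Summed markers of the yolk syncytial layer and liver ran from 350.4 to 3462 CPM in wild type and from 2455 to 10800 CPM in mutants. No marker of these lists was at 0 in all libraries. In RNA from whole embryos, fewer cells of a type and less RNA per cell cannot be told apart, and the part of this make-up in the results below was not tested.

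The mitochondrial translation genes moved in both directions. In mutants 11 members were higher, among them mtrf1l, mrpl2 and mrpl42, 12 were lower, among them mrps6, mrpl12 and gfm1, and 61 did not pass the test (edgeR quasi-likelihood F test, adjusted p under 0.05). Over all 22467 genes tested 15.8% were higher and 16.3% lower, 32.2% in all, and the 23 members are 27.4% of 84. A share this near that of all genes is not a result about the members. Their log2 fold changes ran from -1.07 (mrps6) to 1.24 (gfm2) with a median of -0.067, beside 0.004 over all genes tested. The middle size of a change, without regard to its sign, was 0.294 on the log2 scale in the members and 0.416 in all genes tested. The genes tested include rows with lower levels than any member. Neither this comparison nor that of 2-fold changes was matched for level. Only mrps6 and gfm2 were called and changed by at least 2-fold, 2.38% of members against 15.4% of all genes tested, and gfm2 was under 2-fold without mutant pool 1, at a log2 fold change of 0.59. The genotypes did not overlap in 22 members (26.2%), against 33.7% of all genes tested, and 20 of the 23 called members were among them. How many of all genes called did not overlap is not given here, so 20 of 23 is not read as a trait of the members.

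The counts changed when single pools were left out, and so did the share called over all genes tested. Without mutant pool 1 the count was 10 higher and 23 lower, in a fit that called 37.5% of all genes tested, and without both that pool and wild-type pool 4, an alternative chosen after seeing the data, it was 13 higher and 29 lower, in a fit that called 50.4% of all genes tested. The higher count was 5 without wild-type pool 1, 6 without wild-type pool 3 and 5 without mutant pool 4, where 25.6%, 23.4% and 24.3% of all genes tested were called. The lower count was 6 without wild-type pool 2, mutant pool 2 or mutant pool 3, and 7 without wild-type pool 1 or mutant pool 4. The fits without wild-type pool 2, mutant pool 2 and mutant pool 3 called 23.2%, 27.3% and 24.7% of all genes tested. In all 8 fits that left out 1 library, 11 of the 23 members kept their call: mtif2, mtif3, gfm1, mtrf1l, mrpl2, mrpl3, mrpl12, mrpl38, mrpl42, mrps6 and mrps14. The matching share among all genes called is not given here, so 11 of 23 is not read as a result about the members.

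**Figure D1:**
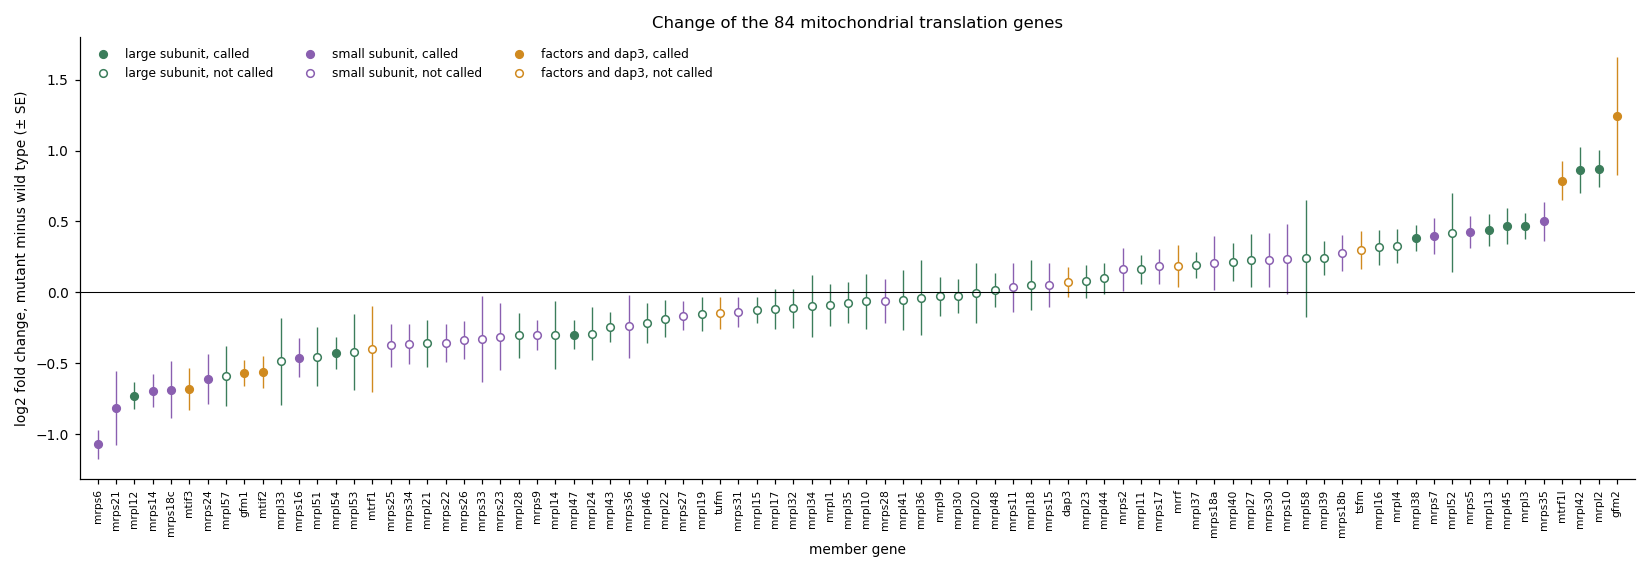
Log2 fold change (mutant minus wild type, with its standard error) of the 84 members in rank order, coloured by subunit or factor, with filled points for those that passed the test. The members run from -1.07 for mrps6 to 1.24 for gfm2, and called members lie at both ends.

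Both initiation factors fell. The gene mtif2 encodes the factor that brings the initiator tRNA to the small subunit. It stood at 30.15, 25.8, 26.6 and 24.5 CPM in wild-type pools 1 to 4 and at 20.6, 16.1, 18.04 and 17.6 CPM in mutant pools 1 to 4. Every mutant pool was below every wild-type pool, and the log2 fold change was -0.56 (SE 0.11, adjusted p = 0.00574). The gene mtif3 encodes the factor that keeps the subunits apart and helps to seat the messenger. It stood at 14.7, 13.2, 14.3 and 12.9 CPM in the wild type against 9.64, 6.96, 7.66 and 10.1 CPM in mutants. The pools again did not overlap, with a log2 fold change of -0.68 (SE 0.15, adjusted p = 0.00807). Both calls held in all 8 fits that left out 1 library, where the highest adjusted p was 0.0298.

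Of the elongation factors, the one that moves the ribosome along fell, and the pair that delivers tRNAs did not pass the test. The gene gfm1 (ENSDARG00000063624) encodes the mitochondrial counterpart of bacterial EF-G in translocation. Its wild-type pools stood at 41.7, 40.5, 40.2 and 44.8 CPM and its mutant pools at 25.4, 29.6, 29.9 and 27.8 CPM. The 2 genotypes are far apart beside their spread, 41.8 ± 2.09 CPM against 28.2 ± 2.10 CPM, with a log2 fold change of -0.57 (SE 0.09, adjusted p = 0.00182). The gene tufm, which encodes the factor that carries aminoacyl-tRNA to the ribosome, stood at 105 ± 14.0 CPM in the wild type against 94.5 ± 7.46 CPM in mutants (adjusted p = 0.367). Its exchange factor tsfm stood at 16.2 ± 2.35 CPM and 19.9 ± 2.25 CPM (adjusted p = 0.131). For these genes the pools of the genotypes overlapped.

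Release and recycling factors showed higher values in mutants where they were called. The gene mtrf1l (ENSDARG00000060005) encodes the main release factor of mitochondria, which reads the usual stop codons. It stood at 6.03, 4.62, 4.95 and 4.62 CPM in the wild type against 9.09, 8.56, 8.46 and 8.82 CPM in mutants. No pools overlapped and the mutant pools were close to each other, with a log2 fold change of 0.79 (SE 0.14, adjusted p = 0.00296). Its relative mtrf1 stood at 6.949, 5.052, 7.573 and 4.425 CPM in the wild type against 6.943, 2.72, 3.983 and 4.499 CPM in mutants, with overlapping pools, and did not pass the test (adjusted p = 0.353).

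The gene gfm2 encodes the factor that splits the ribosome together with the recycling factor mrrf. It stood at 14.1, 10.8, 12.1 and 10.7 CPM in the wild type against 58.95, 15.8, 17.9 and 20.03 CPM in mutants. All mutant pools were above all wild-type pools, but mutant pool 1 was far above the other mutant pools and set much of the log2 fold change of 1.24 (SE 0.41, adjusted p = 0.0486). Without that pool the log2 fold change was 0.59 (SE 0.14, adjusted p = 0.0134). The call was lost without any 1 of the 4 wild-type pools or without mutant pool 4, where adjusted p ran up to 0.115, and it was also lost with limma-voom (0.09) and with no filter on low counts (0.0587). Its partner mrrf stood at 19.99 ± 3.02 CPM and 22.7 ± 3.38 CPM (adjusted p = 0.391). The small-subunit GTP-binding protein dap3, grouped here with the factors by its name, stood at 45.1 ± 4.12 CPM and 47.5 ± 4.86 CPM (adjusted p = 0.632). Of these 10 genes, 2 were higher and 3 lower, and their median log2 fold change was -0.035. Thus 5 of the 10 were called, a larger share than the 32.2% of all genes tested. This difference in share was not tested.

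**Figure D2:**
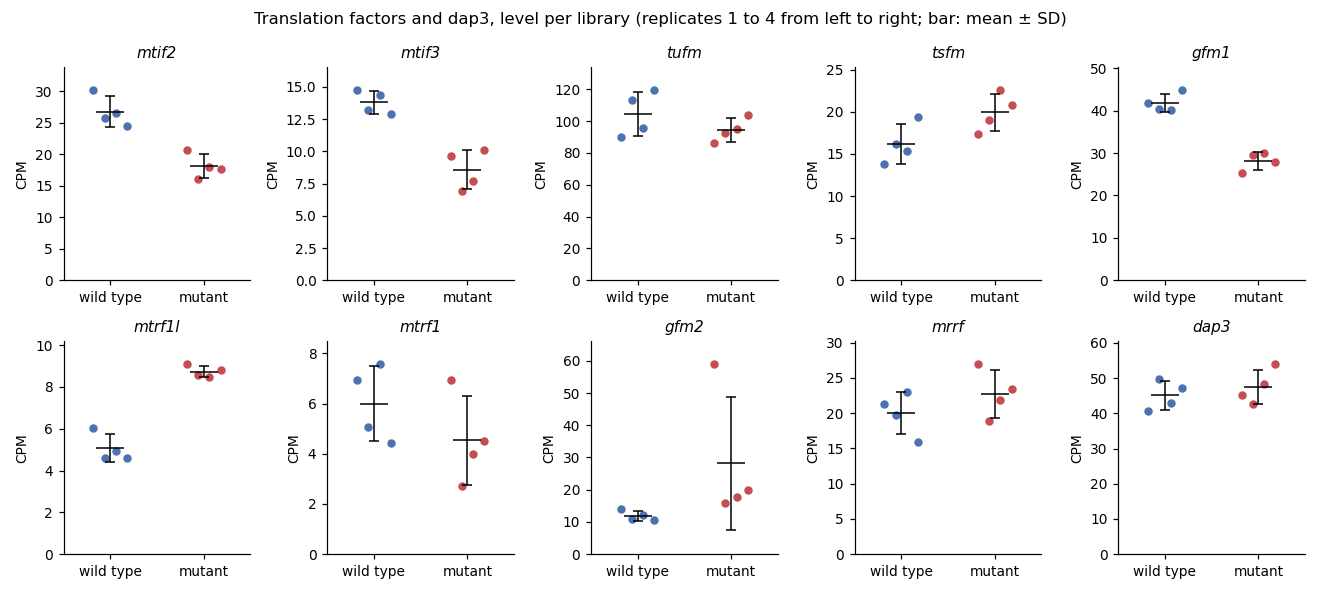
Level in CPM of the translation factors and dap3 in each of the 4 wild-type and 4 mutant pools, 1 panel per gene with its own axis from 0, replicates 1 to 4 from left to right, and bars for mean ± SD. The pools of mtif2, mtif3, gfm1, mtrf1l and gfm2 do not overlap, and gfm2 in mutant pool 1 stands at 58.95 CPM.

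Among the 28 genes named mrps, for the small subunit, 6 were lower, 3 were higher and the median log2 fold change was -0.201. The calls made up 32.1% of these genes, beside 32.2% of all genes tested. The grouping is by name: dap3 is not counted in it, and mrps18a and mrps30 are, although their mammalian proteins sit in the large subunit. The gene mrps36 is also counted by its name, and it was not placed among ribosomal proteins with or without a bacterial counterpart. The largest fall of any member was that of mrps6 (ENSDARG00000039543), whose bacterial counterpart sits on the platform of the small subunit. Its wild-type pools stood at 29.4, 31.1, 32.0 and 26.6 CPM and its mutant pools at 14.9, 13.2, 13.6 and 15.1 CPM. The mutant level was 2.10-fold lower (log2 fold change -1.07, SE 0.10, adjusted p = 0.000171), and the adjusted p was at most 0.00144 with any 1 library left out. The gene mrps14, for a protein of the head of the subunit, stood at 19.7, 18.6, 17.6 and 16.8 CPM in the wild type against 11.7, 9.77, 10.95 and 12.5 CPM in mutants. These pools did not overlap, with a log2 fold change of -0.69 (SE 0.12, adjusted p = 0.00254).

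The other small-subunit proteins that fell varied more between pools. The genes mrps18c and mrps21 encode counterparts of the bacterial proteins that lie beside S6 on the platform, a grouping made after their values were seen. The level of mrps21 was 30.6, 23.9, 26.8 and 16.25 CPM in the wild type against 20.03, 10.0, 10.95 and 14.35 CPM in mutants. Wild-type pool 4 lay below mutant pool 1, so the genotypes overlapped, and the log2 fold change was -0.82 (SE 0.26, adjusted p = 0.042). The level of mrps18c fell from 24.9 ± 4.86 CPM to 15.5 ± 3.42 CPM, and that of mrps24, in the head, from 30.4 ± 4.04 CPM to 19.9 ± 4.64 CPM, with the same pools overlapping. The level of mrps16 fell from 23.4 ± 2.85 CPM to 17.0 ± 2.17 CPM (adjusted p = 0.031). The calls of these 4 genes held only without wild-type pool 4 or without mutant pool 1. They were lost without any 1 of the other 6 pools, where adjusted p reached 0.111 for mrps21.

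The small-subunit genes also held 3 that rose. The gene mrps5 encodes the counterpart of a bacterial protein at the entry of the messenger. It stood at 32.6, 34.5, 33.1 and 35.3 CPM in the wild type against 53.1, 38.5, 41.3 and 49.0 CPM in mutants. All mutant pools were above the wild-type pools (log2 fold change 0.43, SE 0.12, adjusted p = 0.0217). The level of mrps35, a protein with no bacterial counterpart, was 28.3 ± 1.88 CPM in the wild type against 39.98 ± 7.39 CPM in mutants (adjusted p = 0.0241). That of mrps7, which in bacteria organises the head, was 23.7 ± 3.19 CPM and 31.2 ± 3.18 CPM (adjusted p = 0.0423). The call of mrps5 was lost without wild-type pool 1, wild-type pool 3 or mutant pool 4. That of mrps35 was lost without wild-type pool 1, wild-type pool 2 or mutant pool 4, and that of mrps7 held only without mutant pool 2.

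The 3 paralogs of bacterial S18 did not share a call. While mrps18c was lower, mrps18b stood at 29.3 ± 2.58 CPM in the wild type against 35.5 ± 5.15 CPM in mutants (adjusted p = 0.127). The third paralog, mrps18a, stood at 39.4 ± 6.65 CPM and 45.5 ± 11.2 CPM (adjusted p = 0.449). The differences between the paralogs' changes were not tested.

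Among the 46 genes named mrpl, for the large subunit, 6 were higher, 3 were lower and the median log2 fold change was -0.046. The calls made up 19.6% of these genes, beside 32.2% of all genes tested. The difference between the subunits was not tested. The largest rise among these 46 genes was that of mrpl2 (ENSDARG00000062568), whose bacterial counterpart lies by the peptidyl transferase centre, where peptide bonds form. It stood at 32.9, 34.1, 35.0 and 28.8 CPM in wild type and 70.7, 47.6, 57.2 and 63.8 CPM in mutants. The genotypes were well apart, with a log2 fold change of 0.87 (SE 0.13, adjusted p = 0.00152). The gene mrpl3, whose counterpart also lies near that centre, stood at 34.0, 33.5, 34.2 and 32.4 CPM in the wild type against 51.8, 41.2, 47.9 and 45.1 CPM in mutants. No pools overlapped, and the log2 fold change was 0.47 (SE 0.09, adjusted p = 0.00497).

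The other large-subunit genes that rose were mrpl42, mrpl38 and mrpl45, for proteins found in mitochondria and not in bacteria, and mrpl13. Over all the large-subunit rises, mrpl2, mrpl3 and mrpl13 have a bacterial counterpart and the others do not. The level of mrpl42 was 20.85, 18.5, 19.2 and 15.7 CPM in the wild type against 41.6, 25.5, 31.9 and 36.4 CPM in mutants. Next to mrpl2 this was the largest rise in the subunit, with a log2 fold change of 0.86 (SE 0.16, adjusted p = 0.0042). The level of mrpl38, a protein of the central protuberance, was 40.2 ± 1.75 CPM and 52.4 ± 4.71 CPM (adjusted p = 0.0121), and both calls held with any 1 library left out. That of mrpl45, which lies by the exit of the peptide tunnel, was 21.8 ± 3.07 CPM and 30.2 ± 2.60 CPM (adjusted p = 0.0198), and that of mrpl13, which has a bacterial counterpart, was 24.2 ± 2.08 CPM and 32.8 ± 3.70 CPM (adjusted p = 0.018). These last 2 calls were lost without wild-type pool 1, wild-type pool 3, mutant pool 3 or mutant pool 4.

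Of the large-subunit genes that fell, mrpl12 (ENSDARG00000038768) changed most. It encodes the protein of the flexible stalk, which bacteria use to call translation factors to the ribosome. Its wild-type pools stood at 66.7, 63.4, 64.4 and 59.0 CPM and its mutant pools at 42.2, 33.3, 39.9 and 37.7 CPM. The genotypes were apart by far more than either SD, with a log2 fold change of -0.73 (SE 0.10, adjusted p = 0.000791). The gene mrpl10, for the protein that anchors the stalk, stood at 15.8 ± 1.55 CPM and 15.1 ± 4.04 CPM and did not pass the test (adjusted p = 0.837). The level of mrpl54 was 21.5 ± 2.09 CPM in the wild type against 16.0 ± 1.49 CPM in mutants (adjusted p = 0.0209), a call lost without wild-type pool 2, mutant pool 2 or mutant pool 3. That of mrpl47 was 24.0 ± 1.92 CPM and 19.5 ± 1.26 CPM (adjusted p = 0.0493), a call lost with any 1 of the 8 libraries left out.

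**Figure D3:**
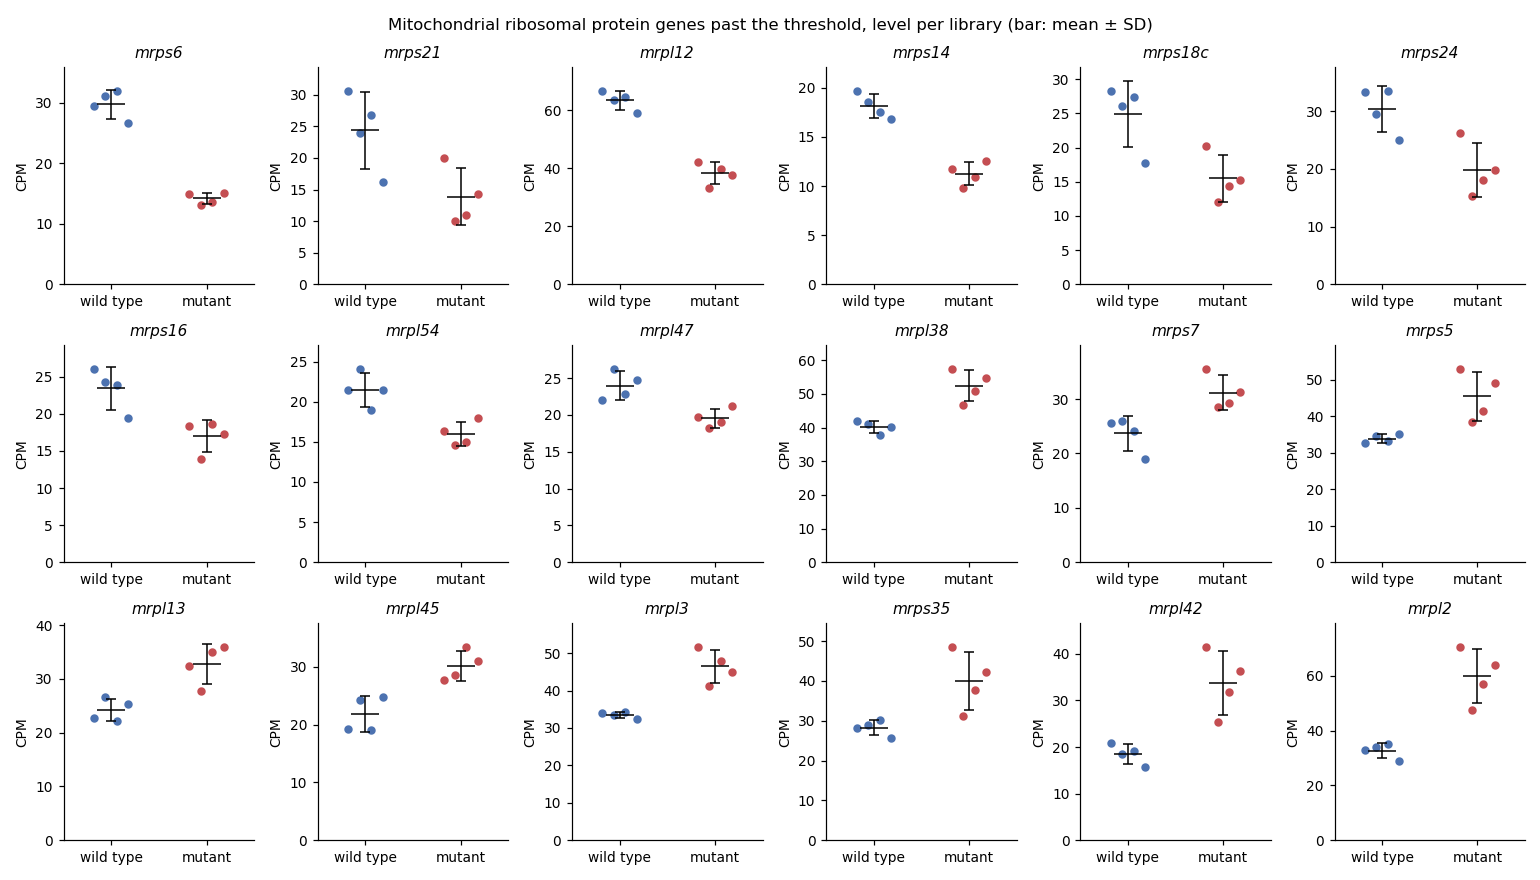
Level in CPM of the 18 called ribosomal proteins in each of the 4 wild-type and 4 mutant pools, 1 panel per gene with its own axis from 0, replicates 1 to 4 from left to right, and bars for mean ± SD. The pools of mrps18c, mrps21 and mrps24 overlap, and those of the other called ribosomal proteins do not.

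By the mean over all 8 libraries the member with the highest CPM was tufm, and mrpl16, mrpl37 and mrps25 came next. In wild type alone mrpl12, at 63.4 CPM, was above all 3 of these. The level of mrpl16 was 57.2 ± 4.83 CPM in the wild type against 71.3 ± 10.7 CPM in mutants, that of mrpl37 was 49.8 ± 1.41 CPM and 56.9 ± 5.89 CPM, and that of mrps25 was 59.5 ± 5.10 CPM and 45.9 ± 10.1 CPM. None of these 3 passed the test (adjusted p = 0.0811, 0.151 and 0.0975). CPM is not a level per length, so this order is not an order of transcript number.

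Proteins with a bacterial counterpart and proteins found in mitochondria alone both moved in both directions. Of the 46 with a counterpart 5 were higher and 8 lower (28.3%), with a median log2 fold change of -0.061. Of the 28 without one 4 were higher and 1 lower (17.9%), with a median of -0.096. Over all genes tested 32.2% were called. The 28 include dap3, and mrps36 was placed in neither class, so these are not the 46 mrpl and 28 mrps genes. This division was made after the values were seen, and it was not tested.

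Some members share reads or ground with other genes. In 11 members the deposited counts were not whole, so RSEM had divided reads between them and other places. Of these 5 were called (gfm2, mrpl2 and mrps7 higher, mtif3 and mrps18c lower), 45.5% beside 32.2% of all genes tested. In the RefSeq table of another assembly, GRCz12tu, 27 members overlap another gene. Of these 8 were called, 29.6%: gfm1, mrpl2, mrpl45, mrpl47, mrps16, mrps35, mtif2 and mtif3. Whether the counting used strand is not given in the sources used here, so reads of such neighbours may not be told apart. In that assembly 4 members lie on the chromosome of osgep, and of these mrpl42 was called (25.0%) and mrps10, mrps18a and mrps33 were not. Differences between these shares and that of all genes were not tested.

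Within a genotype most members, but not all, ranked the same pools high or low. Wild-type pool 4 was the lowest wild-type pool in 54 members, 64.3% against 37.1% of all genes tested. Mutant pool 1 was the highest mutant pool in 62 members, 73.8% against 40.1%, and mutant pool 2 was the lowest in 73 members, 86.9% against 34.5%. Other members went against this order. Wild-type pool 4 was the highest wild-type pool in 12 members (14.3% against 36.6%), and mutant pool 1 the lowest mutant pool in 8 (9.52% against 37.7%). The median deviation of the members from their genotype's mean, on the log2 scale, was 0.077, 0.035, 0.034 and -0.138 in wild-type pools 1 to 4 and 0.256, -0.261, -0.05 and 0.033 in mutant pools 1 to 4. Over all genes tested the same median stayed between -0.008 and 0.025. The scaling between libraries brings the typical gene to a like level, so a median near 0 was set in advance and tests nothing. The summed level of all members was 2627, 2567, 2605 and 2299 CPM in the wild type against 2934, 2056, 2368 and 2502 CPM in mutants, so the mutant pools spanned a wider range than the wild-type pools and enclosed it.

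The share of counts taken by cytoplasmic ribosomal protein genes differed between the same pools. It was 13.98%, 10.43%, 12.85% and 7.937% in wild-type pools 1 to 4 and 14.3%, 7.201%, 8.718% and 9.808% in mutant pools 1 to 4. Wild-type pool 4 and mutant pool 2 had the lowest share of their genotypes and also the highest summed yolk and liver markers, at 3462 and 10800 CPM. Mutant pool 1 had the highest share. The part of these differences between pools in the members' values was not tested. The fit that follows tested only the difference between genotypes.

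When this share entered the fit as a covariate, 24 members were higher and 23 lower, in a fit that called 52.0% of all genes tested. All 23 members called without the covariate kept their call and their direction. The genes with the widest swing between pools included mrpl58, a release factor built into the large subunit, at 13.8, 8.07, 11.8 and 5.21 CPM in the wild type against 20.4, 6.02, 9.69 and 9.75 CPM in mutants. Its level thus differed more between pools of a genotype than between the genotypes. Some members ran the other way, such as mrps30, at 20.4, 27.7, 22.9 and 35.3 CPM in the wild type against 24.1, 34.1, 32.7 and 33.6 CPM in mutants. Here wild-type pool 4 was the highest wild-type pool and mutant pool 1 the lowest mutant pool. Both genes were picked after their values were seen.

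**Figure D4:**
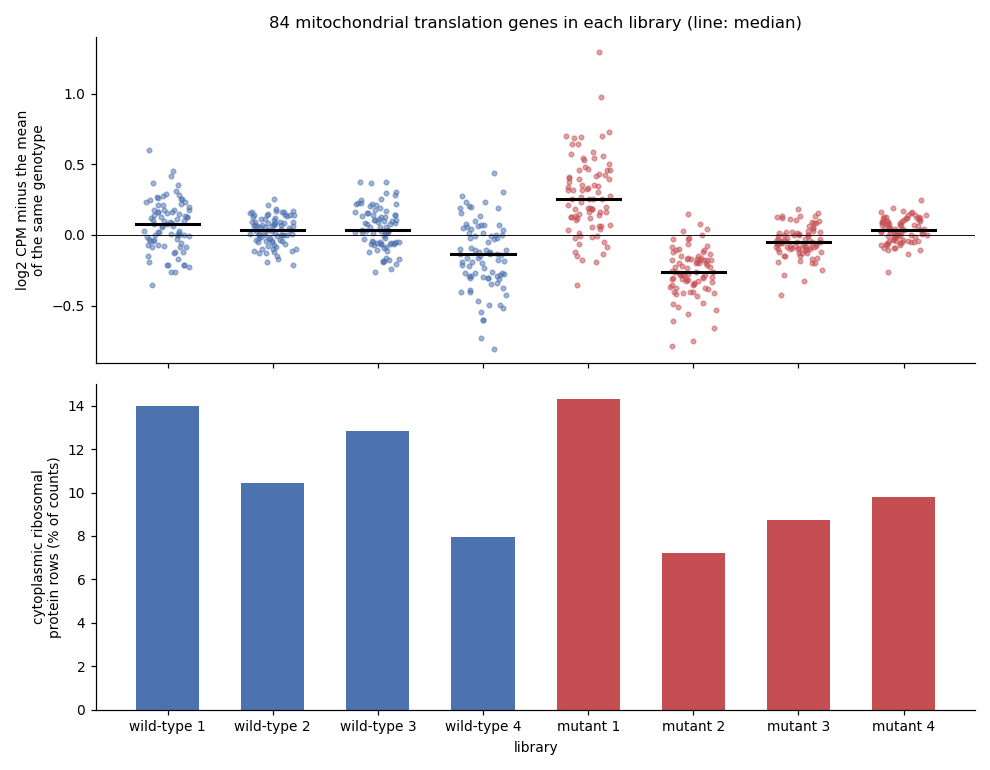
Top, log2 CPM of each of the 84 members minus the mean of its genotype, by pool, with a line at the median; bottom, share of counts in cytoplasmic ribosomal protein rows (%). The medians run from -0.261 in mutant pool 2, which has the lowest share, to 0.256 in mutant pool 1, which has the highest.

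A list was drawn up of genes that build or modify the mitochondrial ribosome. It also holds mettl5 and bola3, whose part in this these data do not settle. The list included 4 genes that were called and at least doubled. That is 12.5% of the list, against 15.4% of all genes tested that were called and changed by at least 2-fold. Of 32 tested, 9 were higher and 2 lower, 34.4% in all beside 32.2% of all genes tested, with a median log2 fold change of 0.17 beside 0.004 over all genes tested. With 1 library left out 6 to 10 were higher and 0 to 5 lower. The lower count was 0 without wild-type pool 2, in a fit that called 23.2% of all genes tested. It was 5 without mutant pool 1, in a fit that called 37.5%. The gene rpusd4, for a pseudouridine synthase of the large mitochondrial ribosomal RNA, stood at 15.65, 15.7, 14.4 and 16.8 CPM in the wild type against 33.0, 28.1, 33.35 and 34.7 CPM in mutants. The log2 fold change was 1.04 (SE 0.10, adjusted p = 0.000192), and no pools overlapped. The gene mettl15, for a methyltransferase of the small-subunit RNA, rose from 1.74 ± 0.177 CPM to 5.46 ± 0.462 CPM (adjusted p = 0.000228). The gene mterf3, for a protein of large-subunit assembly, rose from 7.60 ± 0.713 CPM to 15.3 ± 1.43 CPM (adjusted p = 0.000588). The paralogs mrm3a and mrm3b, named for a methyltransferase of the large-subunit RNA, went opposite ways: mrm3b rose from 3.94 ± 0.955 CPM to 8.25 ± 1.59 CPM (adjusted p = 0.00643) and mrm3a fell from 10.5 ± 1.17 CPM to 7.40 ± 0.651 CPM (adjusted p = 0.0188). The call of mrm3a was lost without wild-type pool 1 or wild-type pool 2 (adjusted p up to 0.0597). Of 4 ribosome proteins that carry other names, ptcd3 rose from 31.6 ± 2.27 CPM to 43.5 ± 3.16 CPM (adjusted p = 0.00618), and chchd1, aurkaip1 and gadd45gip1 did not pass the test.

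Factors that act beside the ribosome went both ways. Of 24 genes for other steps of mitochondrial translation and RNA handling 6 were higher and 1 lower, with a median of -0.051. These calls made up 29.2% of the list, beside 32.2% of all genes tested. The gene taco1, for an activator of cytochrome oxidase subunit translation, stood at 5.90, 3.56, 4.53 and 3.09 CPM in the wild type against 14.7, 8.43, 9.77 and 13.7 CPM in mutants (log2 fold change 1.45, SE 0.26, adjusted p = 0.00349). No pools overlapped, though the mutant pools were spread. The modification that KEOPS makes in the cytoplasm is made in mitochondria by the relative of osgep, osgepl1, and yrdc makes the precursor for both. The level of osgepl1 rose from 0.869 ± 0.266 CPM to 2.30 ± 0.500 CPM (adjusted p = 0.00727), and that of yrdc rose from 19.4 ± 1.49 CPM to 34.1 ± 1.31 CPM (adjusted p = 0.000367). The gene hsd17b10, for a subunit of mitochondrial RNase P, fell from 37.3 ± 2.79 CPM to 25.3 ± 2.25 CPM (adjusted p = 0.00341).

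The list of synthetases that charge mitochondrial tRNAs also holds the amidotransferase genes qrsl1, gatb and gatc. Its genes mostly did not pass the test. Of 19 tested, 2 were higher and 1 lower, 15.8% in all beside 32.2% of all genes tested. The higher ones were sars2, from 4.25 ± 0.808 CPM to 6.70 ± 1.13 CPM, and the row named hars, from 143 ± 6.95 CPM to 437 ± 35.9 CPM (adjusted p = 1.48e-05), which entered the list because the reference table names it HARS2. Whether that row stands for the mitochondrial enzyme, the cytoplasmic one or both is not settled by these tables. The lower one was cars2, from 18.2 ± 3.54 CPM to 11.8 ± 1.72 CPM (adjusted p = 0.0245). With 1 library left out, the call of sars2 held only without wild-type pool 1 or mutant pool 1, and that of cars2 only without wild-type pool 4 or mutant pool 1 (adjusted p up to 0.0989 and 0.0682).

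Of 13 genes for transcription and upkeep of mitochondrial DNA 3 were higher and 1 lower, 30.8% in all beside 32.2% of all genes tested. The packaging factor tfam rose from 44.9 ± 2.78 CPM to 62.0 ± 6.18 CPM (adjusted p = 0.00705) and the topoisomerase top1mt from 36.4 ± 7.04 CPM to 62.0 ± 6.88 CPM (adjusted p = 0.00529). The transcription factor tfb2m fell from 30.6 ± 3.06 CPM to 22.2 ± 3.01 CPM (adjusted p = 0.0235), a call lost without wild-type pool 1, wild-type pool 3 or mutant pool 4.

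The nuclear regulators of mitochondrial genes went both ways, with the largest changes in the paralogs of ATF5. Of 19 tested, 4 were higher and 3 lower, 36.8% in all beside 32.2% of all genes tested. The paralogs of ATF5, which in mammals drives a mitochondrial stress response, rose: atf5b from 25.1 ± 1.47 CPM to 142 ± 8.83 CPM (log2 fold change 2.50, SE 0.09, adjusted p = 1.28e-06), and atf5a from 10.0 ± 1.69 CPM to 45.4 ± 8.75 CPM (adjusted p = 9.53e-05). The other called rises were smaller, with log2 fold changes of 0.682 for mycn and 0.403 for mych. The receptor gene esrrga fell from 9.93 ± 0.563 CPM to 6.12 ± 0.637 CPM (log2 fold change -0.7, adjusted p = 0.00368). The level of yy1a fell from 81.4 ± 2.76 CPM to 62.2 ± 4.92 CPM (adjusted p = 0.00755). The gene nrf1, for a factor that in mammals binds promoters of many mitochondrial genes, fell from 69.2 ± 2.11 CPM to 57.4 ± 4.31 CPM (adjusted p = 0.0347), a call that held only without mutant pool 1.

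Mitochondrial chaperones and proteases had the highest share of calls among these lists, 10 higher and 2 lower of 19 tested (63.2%; 32 rows before the filter on low counts), beside 32.2% of all genes tested. This difference in share was not tested, and the list had a median log2 fold change of 0.429. The proteases lonp1, of the matrix, and yme1l1a, of the inner membrane, rose from 30.7 ± 3.00 CPM to 125 ± 12.4 CPM (adjusted p = 7.66e-06) and from 27.2 ± 1.44 CPM to 80.9 ± 4.10 CPM (adjusted p = 6.94e-06). The paralog of yme1l1a, yme1l1b, fell from 37.5 ± 3.82 CPM to 28.1 ± 1.84 CPM (adjusted p = 0.0141), a call lost without mutant pool 3. The chaperonin hspd1 rose from 234 ± 20.6 CPM to 345 ± 14.6 CPM (adjusted p = 0.00268). The co-chaperone dnaja3a fell from 43.4 ± 2.69 CPM to 21.7 ± 2.58 CPM (adjusted p = 0.000334), whereas its paralog dnaja3b rose from 9.80 ± 1.75 CPM to 23.3 ± 7.17 CPM (adjusted p = 0.00388). Apart from that of yme1l1b, none of these calls was lost with 1 library left out.

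The messages read by the mitochondrial ribosome varied widely between pools. Of 12 protein-coding rows of the mitochondrial genome 2 were lower and none higher, 16.7% beside the 16.3% of all genes tested that were lower, with a median log2 fold change of -0.839. Their summed level was 60990, 36490, 53780 and 25050 CPM in the wild type against 56590, 19070, 23510 and 24690 CPM in mutants. The genotypes overlapped, with mutant pool 1 among the high wild-type pools. The gene mt-nd2 stood at 3513, 2097, 3252 and 1436 CPM in the wild type against 1907, 609.8, 760.4 and 800.3 CPM in mutants (adjusted p = 0.0394), and mt-nd1 fell from 2927 ± 1070 CPM to 1213 ± 700 CPM (adjusted p = 0.0434). Both calls held only without wild-type pool 4 or without mutant pool 1. The fits that left out 1 library called from 0 to 10 of the 12 rows lower, and from 23.2% to 37.5% of all genes tested.

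Of 95 nuclear oxidative phosphorylation genes tested, from 102 rows, 19 were lower and 7 higher, 27.4% in all beside 32.2% of all genes tested, with a median of -0.171. Without 1 library the lower count ran from 12 to 36 and was highest without mutant pool 1. That fit also called the largest share of all genes tested among these fits, 37.5%. The gene ndufa4 stood at 32.5, 26.4, 24.8 and 19.6 CPM in the wild type against 7.95, 4.10, 6.01 and 7.07 CPM in mutants (log2 fold change -2.04, SE 0.23, adjusted p = 0.000398). The pools did not overlap. The gene cox7a2l fell from 47.2 ± 1.60 CPM to 29.8 ± 1.82 CPM (adjusted p = 0.000596), and the assembly factor ndufaf6 rose from 5.39 ± 0.646 CPM to 11.5 ± 1.18 CPM (adjusted p = 0.000771). Of 74 cytoplasmic ribosomal protein genes none was called in the main edgeR fit, 2 were under 0.05 without adjustment, and DESeq2 called 1 of them lower. With 1 library left out some were called, among them rpl36a in 2 of the 8 fits and rpl35, rpl3 and rpl10a in 1 each.

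**Figure D5:**
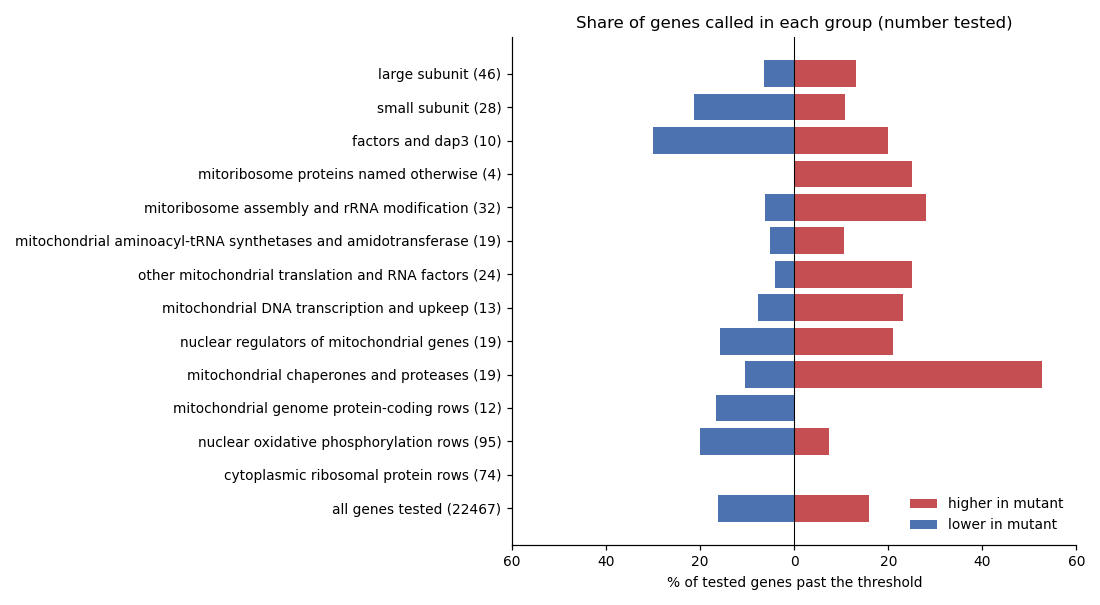
Share of tested genes called lower (bars to the left) and higher (bars to the right) in mutants, in % of the genes tested, for the members by subunit, the related lists and all genes, with the number tested in brackets. Mitochondrial chaperones and proteases reach furthest to the right, with 10 of 19 higher, and cytoplasmic ribosomal protein rows have no bar.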

How the data were processed

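The deposited table holds expected counts per gene and library, made by the authors and not scaled between libraries. Trimmomatic, STAR 2.7, RSEM and the build danRer11 are named per the submitters' processing notes. Per the labels' protocols, ribosomal RNA was depleted and cDNA was random-primed. Genotype and replicate number came from the titles. Expected counts were rounded, filtered with filterByExpr and scaled by TMM. All 22467 genes kept were tested with the two-sided quasi-likelihood F test of edgeR 4.0.16 in R 4.3.3, with Benjamini-Hochberg adjustment over all of them and a threshold of 0.05. CPM are after TMM scaling, and a positive log2 fold change is higher in mutants. Standard errors (SE) are the size of the change divided by the square root of F. No pair of libraries of the same genotype agreed within sampling noise (lowest chi-square per degree of freedom 5.8).

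The members and lists were chosen with earlier results of these data known, so no list was tested. The text names the factors, the called members with the smallest p or largest change, the 4 with the highest CPM, paralogs that differ by a final letter and up to 4 genes per related list, 26 members in all. Other genes were named after their values were seen. Listed symbols that matched no row numbered 6. Alternatives were other scaling (median-ratio size factors, total counts), no filter, DESeq2 1.42.0, limma-voom (limma 3.58.1), the replicate number as a block, the ribosomal protein share as a covariate and 8 fits that left out 1 library. The procedure was tested on simulated data. No sequence or coordinate is given, because the reference tables used hold names and gene neighbours of another assembly.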

Additional observations from a re-analysis of the deposited data

Results flagged for a closer look

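Libraries far from the other 3 of their genotype were looked for with Dixon's test (gap over range above 0.829) in 264 groups of 4 values. Chance marks about 1 in 20 groups, and among the members 4 of 168 stood apart. Mutant pool 1 accounted for 3 of these: gfm2 at 58.95 CPM against 15.79 to 20.03 CPM in the other mutant pools, mrpl33 at 20.24 CPM against 9.765 to 11.35 CPM, and mrps30 at 24.07 CPM against 32.7 to 34.12 CPM. The remaining one was mrps2 in wild-type pool 4, at 30.47 CPM against 38.37 to 39.71 CPM. These members include only gfm2 among those that passed the test between genotypes.

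In the related lists mutant pool 1 was high for mt-nd2 (1907 CPM against 609.8 to 800.3 CPM), mt-nd1 (2255 CPM against 746.3 to 960 CPM), mt-atp8 (110.5 CPM against 46.92 to 48.4 CPM) and mt-nd4l (243.6 CPM against 103.9 to 113.9 CPM). It was low for top1mt, at 51.71 CPM against 64.8 to 65.87 CPM. Wild-type pool 4 was low for aurkaip1, at 36.03 CPM against 42.06 to 42.73 CPM, and high for mrm3b, at 5.365 CPM against 3.382 to 3.603 CPM. The summed markers of the yolk syncytial layer and liver stood apart in wild-type pool 4, at 3462 CPM against 350.4 to 473 CPM, and in mutant pool 2, at 10800 CPM against 2455 to 3706 CPM.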

How the results depend on the processing

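With 1 library left out, the members called higher ranged from 5 to 12 (11 with all libraries) and those called lower from 6 to 23 (12 with all libraries), while 23.2% to 37.5% of all genes tested were called in the same fits (32.2% with all libraries). Without wild-type replicate 4 and mutant replicate 1 together the counts were 13 higher and 29 lower (50.4% of all genes tested called). Taking the ribosomal protein share as a covariate gave counts of 24 higher and 23 lower (52.0%). Under the other scalings, no filter, DESeq2 and limma-voom, the counts were 9 to 11 higher and 11 to 16 lower. The median log2 fold change of the members stayed between -0.215 and 0.029. Direction was followed for the 26 named members and up to 4 genes per related list. Among these no called value changed its direction under any alternative run. Every member called both in the main fit and in an alternative kept its direction. With the replicate block 11 members were higher and 11 lower, in a fit that called 32.0% of all genes tested. There mrpl47 and mrps7 lost their call and mrpl4 gained one. Of the genes named from the related lists, mrm3a, sars2 and nrf1 lost their call with the block. The call of sars2 was also lost with total counts, and that of nrf1 with no filter. Deviations of same-numbered pools correlated at 0.651, 0.169, -0.266 and 0.0895, so the numbers were not taken to pair the samples. The planned count of promoter motifs was not run, since no promoter sequence was used here. The 4 pools per genotype limit the precision of every value.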
